A study of Mus musculus with 9 samples.

Results

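The 10 glycolysis enzymes described here are Hk1, Gpi1, Pfkm, Aldoa, Gapdh, Pgk1, Pgam1, Eno1, Eno2 and Pkm. They were taken by gene symbol from 47593 gene names in the deposited tables, and the value of a gene is the sum over its transcripts of FPKM (fragments mapped to a transcript, scaled by its length and by the size of the library). The material was ribosome-bound RNA of mPFC (medial prefrontal cortex) neurons, taken from adult C57BL/6 mice. It was obtained by RiboTag, a method that pulls down a tagged ribosomal protein. The 9 libraries form 3 groups of 3: GFP control mice in sleep, GFP control mice in enforced wake, and mice with GFP-Fxr1 in enforced wake. Fxr1 is an RNA-binding protein related to the fragile X protein. Not given in the sources used here are the promoter behind GFP and GFP-Fxr1, the Cre driver of the ribosomal tag and the length of enforced wake. No label says that replicates are separate animals, so p-values measure the spread between libraries, part of which may be technical.

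Glycolysis splits glucose into pyruvate in the cytosol and yields ATP without oxygen. In its first phase hexokinase, glucose-6-phosphate isomerase, phosphofructokinase and aldolase spend ATP to make triose phosphates. In its second phase glyceraldehyde-3-phosphate dehydrogenase, phosphoglycerate kinase, phosphoglycerate mutase, enolase and pyruvate kinase regain ATP and give pyruvate, which enters mitochondria or becomes lactate. Neurons characteristically use hexokinase 1, the gamma enolase Eno2 and the M1 form of pyruvate kinase, whereas glial cells hold more Aldoc, Eno1 and M2.

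Depth was estimated from the smallest FPKM steps at 29900000 to 37300000 fragments per library. Replicate 1 of enforced wake with Fxr1 stood apart in a principal component analysis: on the leading component (54.6% of the variance) it lay at 64.1 and the other 8 libraries at -31.2 to 13.3. The check on the labels was Fxr1 itself, at 67.7 to 91.1 FPKM with GFP-Fxr1, against 31.0 to 34.8 in sleep libraries and 31.1 to 34.8 in those of enforced wake. That is a log2 fold change of 1.17 (SE 0.13, limma adjusted p 0.0366) against enforced wake. The 9 neuron markers summed to 3812 to 3968 FPKM in enforced wake, below sleep (4081 to 4245) and the Fxr1 group (3974 to 4134) without overlap. Most of this sum is Snap25 (mean 2657 FPKM in sleep, 2288 in enforced wake and 2601 with Fxr1), and single markers differed in direction. Snap25 and Syt1 were lower in enforced wake than in sleep without overlap. Rbfox3, Map2, Tubb3 and Slc17a7 were higher, and Camk2a, Gad1 and Gad2 overlapped. With Fxr1 against enforced wake, Snap25, Syt1 and Gad2 were higher and Map2 overlapped. Rbfox3, Tubb3, Slc17a7, Camk2a and Gad1 were lower there. None of the markers of any cell type was at 0 in any library. The 10 astrocyte markers summed to 644 to 768 FPKM in enforced wake, above sleep (562 to 627) and the Fxr1 group (511 to 589). Oligodendrocyte markers (9 genes) summed to 127 to 139.7 FPKM with Fxr1, below 144 to 166 in enforced wake, and microglia markers (9 genes) to 31.5 to 37.4, below 39.8 to 43.9, while both overlapped between sleep and the other groups. The part of these shifts in the enzyme values was not tested. In these bulk samples fewer cells of a type and less RNA per cell cannot be told apart.

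All 10 enzymes were abundant: their group means lay at or above percentile 91.1 of the genes tested in each of the 3 groups. In sleep the order of the mean FPKM was Aldoa (791 ± 14.6, SD, n = 3), Pkm (419 ± 70.4), Pgk1 (330.3 ± 10.5), Eno2 (238 ± 95.3), Gpi1 (226 ± 22.5), Eno1 (208 ± 30.7), Pgam1 (146 ± 6.92), Pfkm (125 ± 15.0), Hk1 (87.7 ± 11.1) and Gapdh (72.9 ± 23.4). The ranges of neighbours overlapped between Pkm and Pgk1, Eno2 and Gpi1, Gpi1 and Eno1, and Hk1 and Gapdh. Aldoa led and Gapdh came last in enforced wake and with Fxr1 as well. The rank of Gapdh depends on how reads shared with its copies were counted: with the copies added it summed to 1235, 1499 and 903 FPKM in the 3 groups, above Aldoa at 791, 931 and 587. Together the 10 enzymes took 0.826% to 0.899% of all FPKM in enforced wake, 0.703% to 0.853% in sleep and 0.452% to 0.744% with Fxr1.

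**Figure D1:**
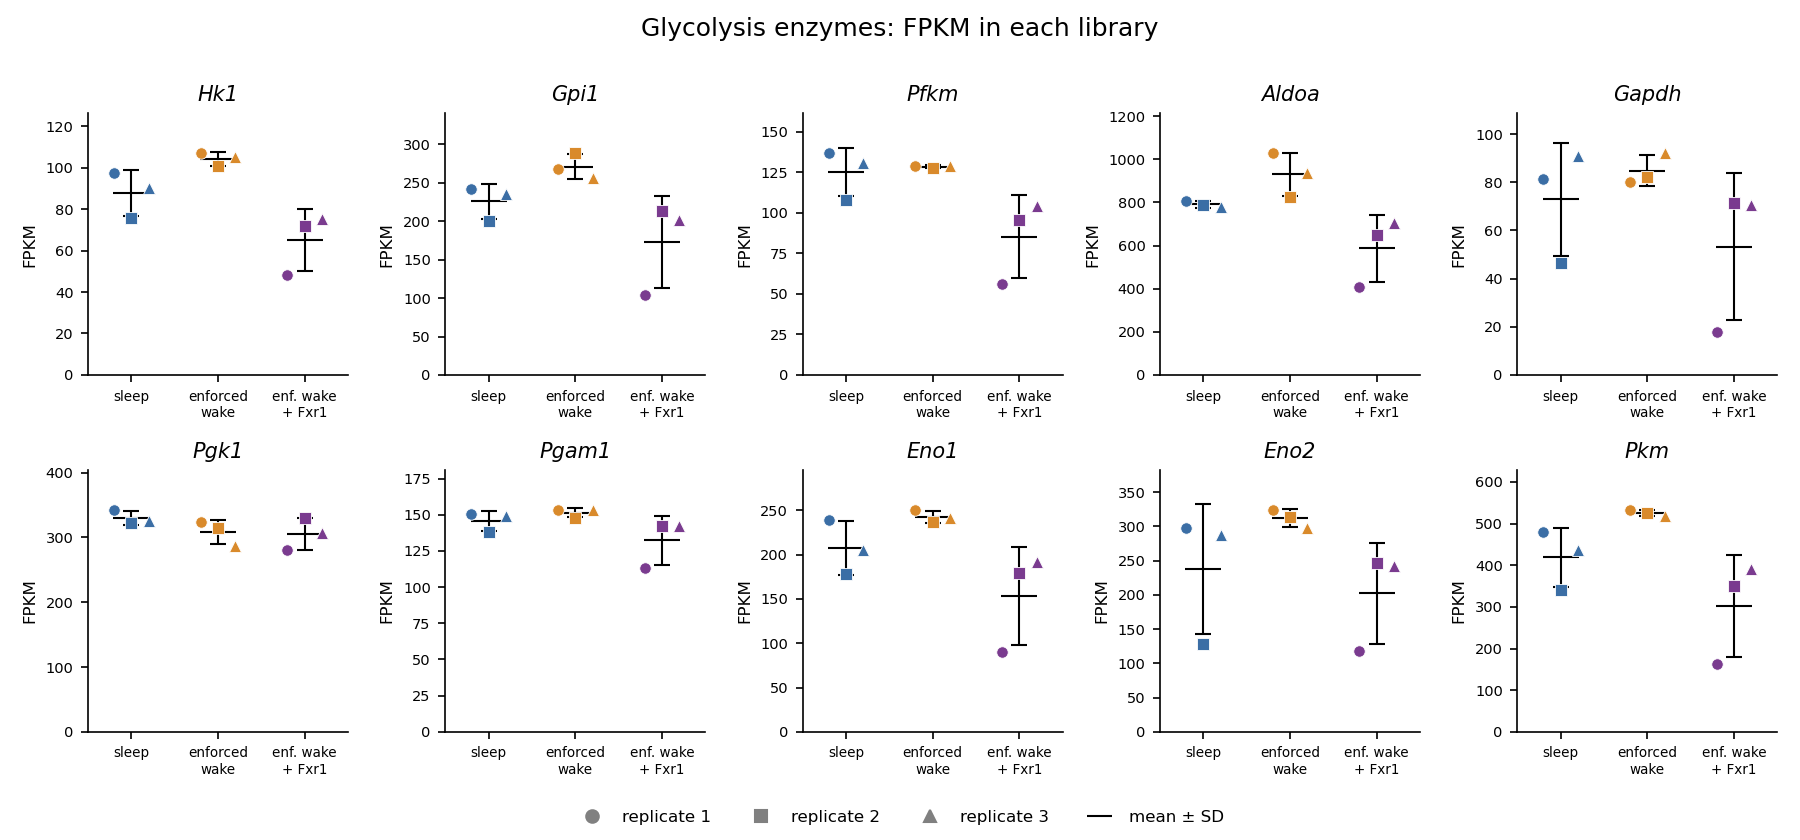
FPKM of each glycolysis enzyme (linear axes from 0) in the 9 libraries, with the mean and SD of each group of 3 as bars and the replicate number as the marker shape. Replicate 1 of enforced wake with Fxr1 (circle) is the lowest of the 9 libraries in all 10 panels, and Pgk1 is the flattest panel.

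Hexokinase 1, which phosphorylates glucose on entry and commits it to the cell, read 97.3, 75.6 and 90.3 FPKM in sleep, 107, 101 and 105 in enforced wake and 48.2, 71.8 and 75.4 with Fxr1. All 3 enforced wake libraries were above all sleep libraries, and all 3 Fxr1 libraries were below both other groups. Glucose-6-phosphate isomerase (Gpi1), which turns glucose 6-phosphate into fructose 6-phosphate, read 242, 200.1 and 235 FPKM in sleep, 268, 288 and 256 in enforced wake and 104, 213 and 201 with Fxr1. Enforced wake was the highest group without overlap, while sleep and Fxr1 overlapped.

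Phosphofructokinase of the muscle type (Pfkm), a subunit of the main control point of the pathway, read 137, 108 and 131 FPKM in sleep, 129, 127 and 129 in enforced wake and 56.1, 95.7 and 104 with Fxr1. Sleep spread around the tight enforced wake values, and the Fxr1 libraries lay below all others. Aldolase A, which cleaves fructose 1,6-bisphosphate, read 807, 787 and 778 FPKM in sleep, 1028, 827 and 935 in enforced wake and 409.9, 647 and 703 with Fxr1. The 3 groups did not overlap, with enforced wake highest and Fxr1 lowest.

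Of the enzymes of the second phase, Gapdh, which oxidizes glyceraldehyde 3-phosphate, read 81.5, 46.4 and 90.7 FPKM in sleep, 80.0, 82.2 and 92.0 in enforced wake and 18.0, 71.2 and 70.4 with Fxr1. Sleep overlapped both other groups, and replicate 1 with Fxr1 was far below its group. Phosphoglycerate kinase 1 (Pgk1), the first step that returns ATP, read 342, 323 and 326 FPKM in sleep, 324, 315 and 287 in enforced wake and 280.1, 329.8 and 306 with Fxr1. Its groups overlapped in every comparison. Phosphoglycerate mutase 1 (Pgam1), which moves the phosphate group, read 150.4, 138 and 149 FPKM in sleep, 153, 148 and 153 in enforced wake and 113, 142 and 142 with Fxr1. The Fxr1 libraries lay below enforced wake and overlapped sleep.

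Enolase makes phosphoenolpyruvate, and its alpha gene Eno1 read 239, 178 and 205 FPKM in sleep, 250.2, 237 and 241 in enforced wake and 90.2, 179 and 192 with Fxr1. Sleep overlapped both other groups. The neuronal gamma gene Eno2 read 298, 128 and 288 FPKM in sleep, 324, 314 and 298 in enforced wake and 118, 246 and 242 with Fxr1. Replicate 2 of sleep and replicate 1 with Fxr1 both read less than the other 7 libraries. Pyruvate kinase (Pkm), the last step, read 479, 341 and 435 FPKM in sleep, 532, 525 and 518 in enforced wake and 163, 351 and 391 with Fxr1. Enforced wake was highest without overlap. In sleep, replicate 2 was the lowest library for 9 of the 10 enzymes.

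In enforced wake against sleep, none of the 10 enzymes passed the limma test at an adjusted p of 0.05, while 4156 of 14673 genes tested did (28.3%). At an unadjusted p under 0.05 there were 4 enzymes, and 6248 of all 14673 genes. The enzymes had a median log2 fold change of 0.24 on the log2(FPKM + 1) scale, against 0.004 for all genes. Those nearest the threshold were Gpi1 (log2 fold change 0.26, SE 0.09, adjusted p 0.0661), Pkm (0.34, SE 0.12, adjusted p 0.0788), Aldoa (0.23, SE 0.09, adjusted p 0.0901) and Hk1 (0.25, SE 0.10, adjusted p 0.0903). The others were Eno2 at 0.49 with an SE of 0.31, Gapdh at 0.27, Eno1 at 0.23, Pgam1 at 0.05, Pfkm at 0.04 and Pgk1 at -0.10, with adjusted p-values of 0.140 to 0.743. FPKM did not overlap for 4 enzymes, all higher in enforced wake (Hk1, Gpi1, Aldoa and Pkm), against 25.8% of all genes higher without overlap. With libraries weighted by their spread, 2 enzymes passed, Gpi1 (0.25, adjusted p 0.0236) and Pkm (0.27, adjusted p 0.0290). In that fit 2977 of 14673 genes passed as higher, and 37.8% in either direction. Without replicate 1 of sleep, 3 enzymes passed as higher: Eno1 (0.34, adjusted p 0.0337), Pkm (0.44, adjusted p 0.0377) and Hk1 (0.33, adjusted p 0.0471), with 14.3% of all genes. Eno2 moved from 0.49 to 0.09 and Gapdh from 0.27 to -0.02 without replicate 2 of sleep.

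In enforced wake with Fxr1 against enforced wake, no enzyme passed either, and 60 of 14563 genes did (0.412%), 12 higher and 48 lower, against 11 and 25 when protein-coding sums were made equal. At an unadjusted p under 0.05 there were 7 of the 10, and 5582 of all 14563 genes. The median log2 fold change of the enzymes was -0.70, against -0.06 for all genes, and the FPKM of 9 of 10 were lower with Fxr1 without overlap, as were those of 32.3% of all genes. In terms of group means these 9 were 12.5% to 42.5% lower, from Pgam1 to Pkm, and Pgk1 was 1.05% lower. The fitted values were -0.70 for Hk1 (SE 0.17, adjusted p 0.0878), -0.70 for Aldoa (SE 0.22, adjusted p 0.0925), -0.64 for Pfkm (SE 0.23, adjusted p 0.103), -0.89 for Pkm (SE 0.32, adjusted p 0.103) and -0.71 for Gpi1 (SE 0.27, adjusted p 0.113). Eno1 was at -0.73, Eno2 at -0.70, Gapdh at -0.89, Pgam1 at -0.20 and Pgk1 at -0.02, with adjusted p-values of 0.115 to 0.912.

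The enzymes were read again without replicate 1 of enforced wake with Fxr1. In that fit 7 of 10 enzymes fell, and 17.1% of 14554 genes passed as lower. Hk1 fell by 0.50 on the log2 scale (SE 0.06, adjusted p 0.0069), Pkm by 0.50 (adjusted p 0.0092), Eno1 by 0.39 (adjusted p 0.0116), Pfkm by 0.36 (adjusted p 0.0130), Eno2 by 0.35 (adjusted p 0.0146), Gpi1 by 0.38 (adjusted p 0.0189) and Aldoa by 0.46 (adjusted p 0.0330). Gapdh (-0.25, adjusted p 0.0611), Pgam1 (-0.09, adjusted p 0.223) and Pgk1 (0.04, adjusted p 0.683) did not pass. So the fold changes were smaller without this library and their errors smaller still. With each library also corrected for GC content and length, 0 of the 10 enzymes passed without this library. An unadjusted p under 0.05 was then reached by 1 enzyme and by 3013 of 14554 genes. The median log2 fold change of the enzymes was -0.07, against -0.37 without the correction. When each library was weighted by its spread, 7 enzymes fell too (Hk1, Pkm, Pfkm, Eno1, Aldoa, Gpi1 and Eno2), with 29.6% of all genes lower.

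In enforced wake with Fxr1 against sleep, no enzyme passed, with 1138 of 14617 genes passing (7.79%). An unadjusted p under 0.05 was reached by 3 enzymes and by 4263 of the 14617 genes. The genes passing were 468 higher and 670 lower, against 624 and 502 when protein-coding sums were made equal and 631 and 435 under median-ratio scaling. The enzymes had a median of -0.46 on the log2 scale, against -0.09 for all genes. The values ran from -0.62 for Gapdh (SE 0.49) and -0.59 for Pfkm (SE 0.21, adjusted p 0.112) to -0.12 for Pgk1 (SE 0.08, adjusted p 0.371). Hk1, Pfkm and Aldoa were lower than sleep without overlap, as were 21.2% of all genes. This comparison shares its libraries with the other comparisons. With libraries weighted, Pfkm (-0.43, adjusted p 0.0050), Hk1 (-0.33, adjusted p 0.0109) and Aldoa (-0.28, adjusted p 0.0434) fell. In that fit 3311 of 14617 genes passed as lower, and 34.4% in either direction. Without replicate 2 of sleep and replicate 1 with Fxr1, 4 enzymes fell: Pfkm (-0.42, adjusted p 0.0106), Hk1 (-0.35, adjusted p 0.0197), Eno2 (-0.26, adjusted p 0.0324) and Pkm (-0.30, adjusted p 0.0429), with 9.27% of all genes lower.

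**Figure D2:**
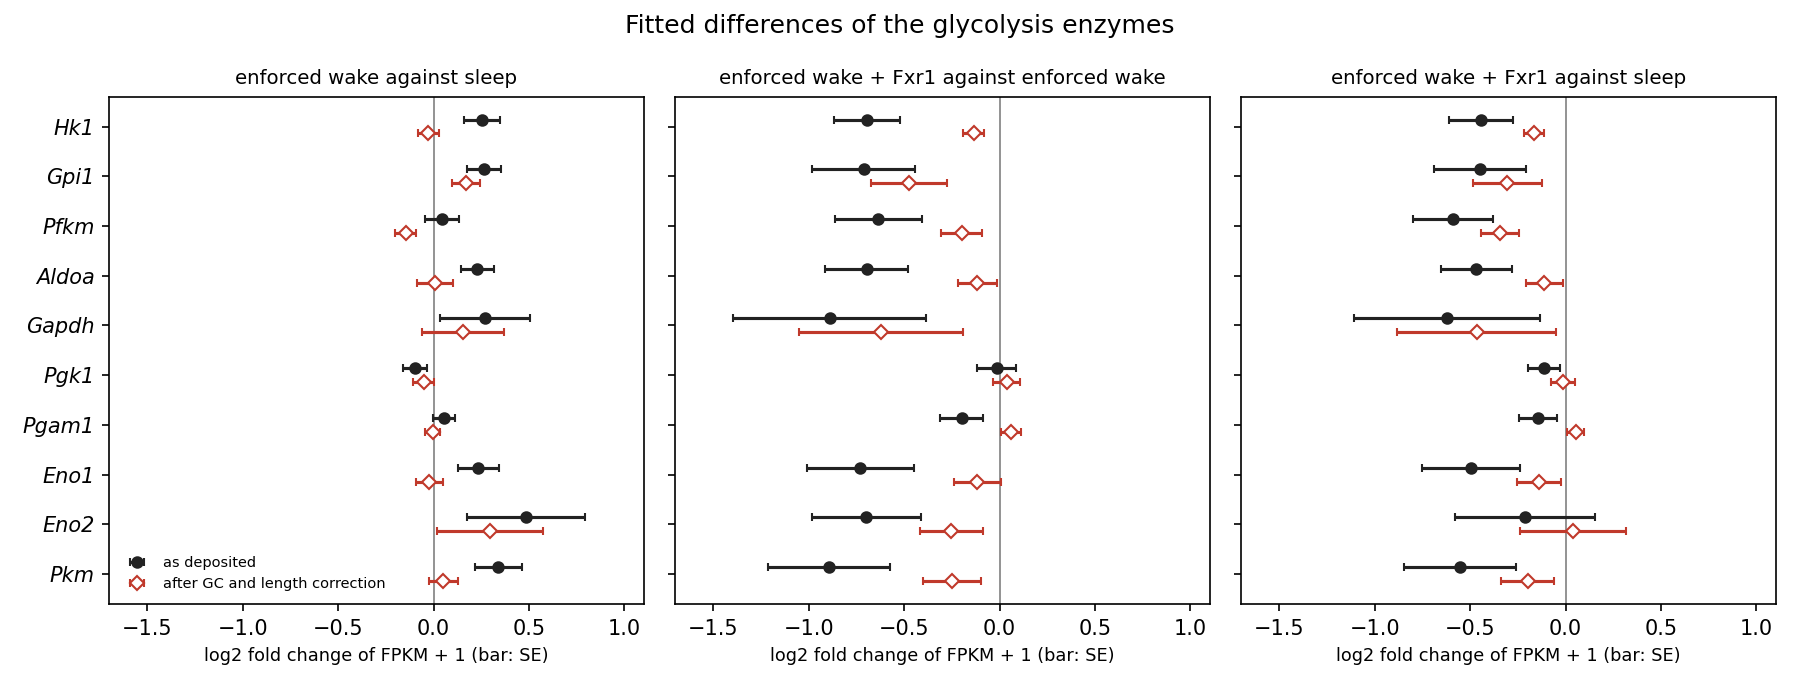
Log2 fold change of FPKM + 1 with its SE for each enzyme in the 3 comparisons, as deposited (filled circles) and after correction for GC content and length (open diamonds). In the middle panel the median of the 10 enzymes is -0.70 as deposited and -0.17 after the correction.

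The libraries differed in how FPKM followed GC content. The protein-coding genes tested were put in 10 bins from low to high GC. Of the 10 enzymes, 9 had a GC content of 52.1% to 57.7% in the longest transcript, in bins 7 to 9. Pgk1, at 49.7%, lay near the middle, in bin 5 or 6 depending on the genes tested. Spearman correlations between GC content and the deviation of a library from the mean of all used 11514 protein-coding genes. These had a mean of at least 1 FPKM. The correlations were 0.65 to 0.74 in enforced wake, -0.39 to 0.25 in sleep and -0.81 to -0.26 with Fxr1. Replicate 1 with Fxr1 had the value of -0.81 and replicate 2 of sleep that of -0.39. These are descriptions, since genes are not replicates. The bins held like numbers of genes. Bin 9 holds Hk1, Aldoa, Eno1 and Pkm. Among its protein-coding genes the median log2 fold change was 0.25 in enforced wake against sleep and -0.55 with Fxr1 against enforced wake.

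After each library was corrected for GC content and length, no enzyme passed in any of the 3 comparisons, against 23.6%, 0.309% and 12.8% of all genes. The median log2 fold change of the enzymes became -7.1e-05 in enforced wake against sleep, -0.17 with Fxr1 against enforced wake and -0.15 with Fxr1 against sleep. With Fxr1 against enforced wake 8 of 10 stayed below 0, from -0.62 for Gapdh (SE 0.43) and -0.48 for Gpi1 (SE 0.20, adjusted p 0.231) to -0.12 for Aldoa. Pgam1 (0.06) and Pgk1 (0.04) were above 0. The correction used the GC content of the longest transcript, 52.1% for Gpi1 and 52.6% for Gapdh. The top transcripts of these genes in all 9 libraries, Gpi1-207 and Gapdh-203, had 56.5% and 56.6%. Whether Gpi1 and Gapdh were corrected too little was not tested. Against sleep, Pfkm was at -0.35 (SE 0.10, adjusted p 0.0565) and Hk1 at -0.16 (SE 0.05, adjusted p 0.0795). The correction removes any change of expression that follows GC content, and its part in the differences was not tested.

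**Figure D3:**
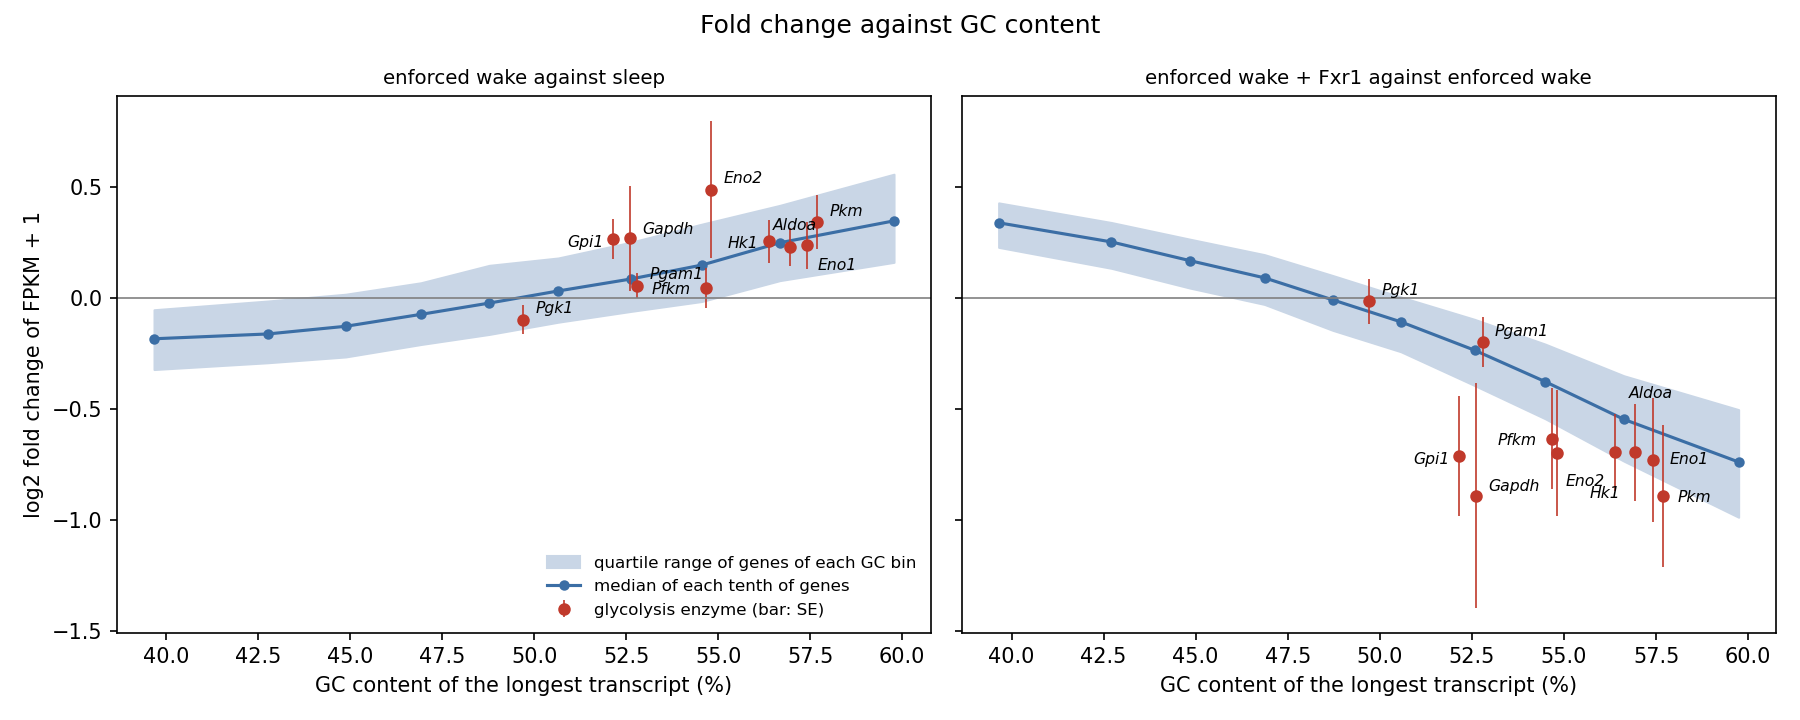
Log2 fold change of FPKM + 1 against the GC content of the longest transcript. Shown are 10 bins of protein-coding genes (median as line, lower to upper quartile as band) and the enzymes (points with SE). In the right panel the genes of bin 9 have a median of -0.55 and Hk1, Aldoa, Eno1 and Pkm lie at -0.70 to -0.89.

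Other genes of the pathway passed in enforced wake against sleep, where 15.7% of all genes tested rose and 12.7% fell. Of 15 other glycolysis genes 9 could be tested, of which 2 rose and none fell. The median over those tested was 0.02 on the log2 scale. They encode the other phosphofructokinase subunits: Pfkl rose from 35.3 ± 6.38 to 49.3 ± 2.57 FPKM (SD, n = 3; log2 fold change 0.48, adjusted p 0.0364) and Pfkp from 102 ± 8.25 to 126 ± 2.74 (0.31, adjusted p 0.0200). Pfkl passed in 8 of 17 alternative settings and Pfkp in 11. With 1 library left out the highest adjusted p was 0.112 for Pfkl, without replicate 3 of enforced wake, and 0.0649 for Pfkp, without replicate 2 of enforced wake. With all 9 libraries in 1 fit it was 0.392 and 0.268, and after the GC and length correction Pfkl was at 0.19 (adjusted p 0.111) and Pfkp at 0.27 (adjusted p 0.0326). With that correction 1 of the 9 other glycolysis genes tested passed as higher and 2 as lower. Triose phosphate isomerase (Tpi1) read 341 ± 43.9 in sleep, 401 ± 7.02 in enforced wake and 269 ± 74.7 FPKM with Fxr1, and Aldoc 67.2 ± 11.0, 87.8 ± 9.19 and 50.0 ± 5.48. Neither passed in any comparison over its whole groups. Aldoc is also among the astrocyte markers, whose sum was higher in enforced wake.

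Among 12 regulators 8 could be tested, of which 3 rose and 1 fell in enforced wake against sleep, with a median of -0.06. Pfkfb3, which makes fructose 2,6-bisphosphate, the strongest activator of phosphofructokinase, read 8.15, 8.58 and 6.00 FPKM in sleep, 16.1, 18.7 and 22.0 in enforced wake and 11.2, 14.9 and 15.1 with Fxr1. The 3 groups did not overlap. Its log2 fold change was 1.22 (SE 0.15, adjusted p 0.0045) in enforced wake against sleep, 1.16 (adjusted p 0.0056) after the GC and length correction, and 1.08 to 1.33 when each of the 6 libraries was left out in turn, with the highest adjusted p at 0.0225. With Fxr1 it was 0.78 (SE 0.17, adjusted p 0.0313) above sleep and -0.44 (SE 0.16, adjusted p 0.108) against enforced wake. The call above sleep was lost when libraries were left out, with an adjusted p of 0.103 without replicate 3 of sleep.

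Pfkfb4, a relative of Pfkfb3, rose at a low level from 1.94 ± 0.0841 to 2.59 ± 0.214 FPKM (0.29, adjusted p 0.0329), and its adjusted p was 0.425 after the GC and length correction and 0.112 without replicate 2 of enforced wake. The ADP-dependent glucokinase Adpgk rose from 4.16 ± 0.246 to 5.35 ± 0.104 FPKM (0.30, adjusted p 0.0202, and 0.0752 without replicate 2 of enforced wake). Hif1a, the oxygen-regulated transcription factor that drives many glycolysis genes, fell from 30.1 ± 1.91 to 22.5 ± 0.386 FPKM (-0.40, SE 0.06, adjusted p 0.0076) and passed with each library left out in turn. Hif1a read 28.3 ± 3.39 FPKM with Fxr1. The direction of Hif1a in enforced wake was thus opposite to that of Pfkfb3.

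Of 16 genes that decide the fate of pyruvate, all tested, 4 fell and none rose in enforced wake against sleep, with a median of -0.11. The pyruvate dehydrogenase subunits Pdha1 (135 ± 3.48 to 109.7 ± 5.98 FPKM, log2 fold change -0.30, adjusted p 0.0150) and Dld (89.0 ± 5.03 to 70.5 ± 3.44 FPKM, -0.33, adjusted p 0.0146) fell. The kinases Pdk1 (29.5 ± 2.68 to 23.0 ± 1.73 FPKM, -0.35, adjusted p 0.0274) and Pdk3 (26.5 ± 1.35 to 21.8 ± 0.519 FPKM, -0.27, adjusted p 0.0197), which switch the same enzyme off, fell too. Dld passed with each library left out, whereas the highest adjusted p was 0.0581 for Pdha1 and 0.0700 for Pdk3 without replicate 2 of enforced wake, and 0.0855 for Pdk1 without replicate 3 of enforced wake. After the GC and length correction 2 of the 16 genes passed as lower, and Dld had an adjusted p of 0.0833. The lactate dehydrogenases did not pass: Ldha read 189 ± 13.7 FPKM in sleep, 215 ± 10.7 in enforced wake and 186 ± 35.3 with Fxr1, and Ldhb 354 ± 24.2, 349 ± 13.7 and 288 ± 41.0.

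Among the glycogen genes, Ugp2, which makes the glucose donor for glycogen, fell in enforced wake against sleep from 44.1 ± 1.71 to 33.0 ± 1.33 FPKM (-0.41, adjusted p 0.0061, and 0.0521 after the GC and length correction). The branching enzyme Gbe1 fell from 4.86 ± 0.641 to 3.30 ± 0.155 FPKM (-0.44, adjusted p 0.0181). Without replicate 2 of enforced wake the adjusted p was 0.0643 for Gbe1.

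With Fxr1 against enforced wake, 1 gene passed of the 51 tested from these 5 lists of 61. Rpe, the ribulose phosphate epimerase of the pentose phosphate pathway, rose from 7.36 ± 0.289 to 15.8 ± 2.62 FPKM (0.99, SE 0.13, adjusted p 0.0454), against 11.1 ± 3.40 FPKM in sleep, and its adjusted p was 0.240 without replicate 3 of enforced wake. The median of the 8 pentose phosphate genes was -0.56, and Tkt, Taldo1 and Pgd were among those below 0. Without replicate 1 with Fxr1, 15 genes of the lists passed, against 22.8% of all genes. Of these 4 rose and 11 fell, among the latter Tpi1 (-0.37, adjusted p 0.0166), Pfkl (-0.69, adjusted p 0.0083) and Aldoc (-0.71, adjusted p 0.0101). With Fxr1 against sleep, Pfkfb3 and Hkdc1 passed. Hkdc1, a relative of hexokinase, fell from 6.61 ± 0.251 to 3.97 ± 1.05 FPKM (-0.64, adjusted p 0.0489, and 0.148 without replicate 3 of sleep).

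**Figure D4:**
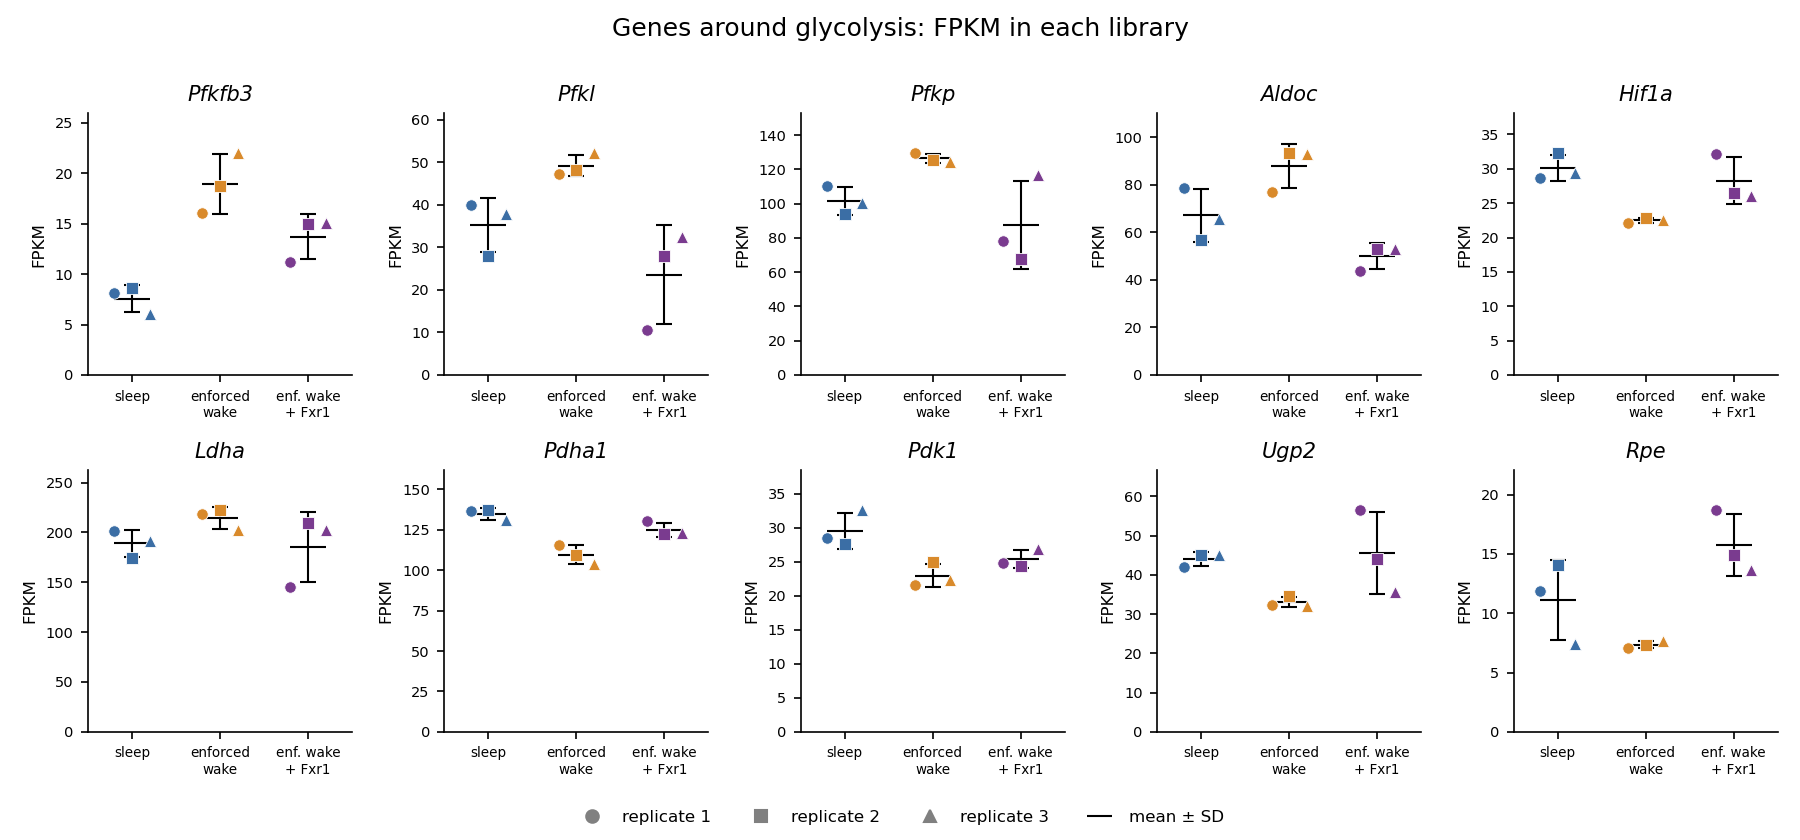
FPKM (linear axes from 0) of 10 genes around the pathway in the 9 libraries, with the mean and SD of each group of 3 and the replicate as the marker shape. Pfkfb3 is lowest in sleep (6.00 to 8.58 FPKM) and highest in enforced wake (16.1 to 22.0), and Hif1a is lowest in enforced wake.

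Pkm makes M1 or M2 pyruvate kinase by use of 1 of a pair of mutually exclusive exons, both of 167 bases and both exon 9 of their transcript, on the plus strand of chromosome 9 (GRCm38). They are shown because the tables hold 1 transcript with each. The capitals mark the 64 bases at which the exons differ (61.7% identity). The M1 exon lies at chr9:59675029-59675195 and the M2 exon at chr9:59675568-59675734.
M1 exon: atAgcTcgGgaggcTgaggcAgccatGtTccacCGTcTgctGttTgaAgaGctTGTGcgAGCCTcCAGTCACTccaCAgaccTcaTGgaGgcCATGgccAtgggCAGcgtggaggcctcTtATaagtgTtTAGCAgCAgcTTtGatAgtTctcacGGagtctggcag
M2 exon: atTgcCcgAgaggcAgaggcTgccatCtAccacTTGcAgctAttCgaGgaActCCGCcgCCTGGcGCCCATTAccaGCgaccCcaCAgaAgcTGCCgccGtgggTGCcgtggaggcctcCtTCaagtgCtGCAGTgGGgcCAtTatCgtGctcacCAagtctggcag
The M1 transcript (Pkm-202) read 446, 317 and 408 FPKM in sleep, 483, 493 and 488 in enforced wake and 154, 312 and 367 with Fxr1. The M2 transcript (Pkm-201) read 33.0, 24.9 and 27.6 FPKM in sleep, 49.2, 31.9 and 29.2 in enforced wake and 8.88, 38.9 and 24.0 with Fxr1. Sleep libraries had 92.7% to 93.7% of the sum as M1, enforced wake libraries 90.8% to 94.4% and Fxr1 libraries 88.9% to 94.6%. The log2 ratio of M1 to M2 was 3.77 ± 0.11 (SD, n = 3) in sleep, 3.77 ± 0.41 in enforced wake and 3.69 ± 0.60 with Fxr1. No difference was detectable by the exact permutation test (2-sided, p = 1.0, 0.8 and 1.0 for the 3 comparisons, where 3 against 3 libraries cannot give less than 0.1). The ratio of Eno2 to Eno1 spanned 0.720 to 1.40 over sleep libraries, 1.24 to 1.33 over enforced wake libraries and 1.27 to 1.38 over those with Fxr1 (exact permutation p = 0.8, 0.5 and 0.6).

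The share of single transcripts in a gene value moved between libraries in some of the enzymes and not in others. The largest range of 1 transcript's share was 94.8 percentage points for Aldoa, 77.7 for Eno2, 57.1 for Pgk1 and 50.5 for Hk1, against 5.65 for Pkm and 0.824 for Pfkm, and Pgam1 has a single transcript. Of the 10 enzymes, 5 had more than 1 transcript that was the top one in some library (Hk1, Aldoa, Pgk1, Eno1 and Eno2). The nonsense-mediated decay transcript Pgk1-203 read 195 FPKM in replicate 1 of sleep and 179.8 in replicate 2 of enforced wake and at most 0.0376 in the other 7 libraries, while the gene ranged from 280.1 to 342. Aldoa-201, Aldoa-202 and Aldoa-203, which share most exons, were each the top transcript in at least 1 library. The retained-intron transcript Eno2-203 was listed at 0 in replicate 2 of sleep and in replicate 1 with Fxr1, and at 174 to 231 FPKM in the other 7 libraries. Those are the same 2 libraries in which the Eno2 gene value was lowest. Gpi1-207, annotated as a nonsense-mediated decay transcript, was the top Gpi1 transcript in all 9 libraries.

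Of 50 transcripts of the enzymes tested with Fxr1 against enforced wake, 1 passed, against 0.895% of all transcripts. This was Hk1-205, a protein-coding transcript that starts upstream of Hk1-202 (chr10:62269909-62342722, minus strand). It read 29.3, 18.7 and 1.97 FPKM in sleep, 56.0, 53.0 and 43.4 in enforced wake and 10.7, 11.1 and 9.28 with Fxr1. The Fxr1 libraries were far below enforced wake and inside the wide range of sleep. Transcript estimates depend on how reads were divided among overlapping transcripts, and the part of this in the call was not tested. Hk1-201 was estimated at 13.2 FPKM in replicate 2 of sleep and 26.1 in replicate 2 with Fxr1, and at or near 0 in the other 7 libraries. The log2 fold change with Fxr1 against enforced wake was -2.18 (SE 0.13, limma adjusted p 0.0036 over all transcripts), and 2.09 (SE 0.89, adjusted p 0.252) in enforced wake against sleep. The other main transcript, Hk1-202, read 67.0, 42.8 and 87.3 FPKM in sleep, 50.1, 46.7 and 60.6 in enforced wake and 36.7, 33.6 and 64.7 with Fxr1, with overlap between all groups. No transcript of the enzymes passed in enforced wake against sleep (51 tested, 3.62% of all transcripts passing, 10 of the enzymes at an unadjusted p under 0.05) or with Fxr1 against sleep (49 tested, 0.818%, 8 at an unadjusted p under 0.05). The authors' deposited q-values were read for the 43 transcripts of the enzymes with a mean of at least 1 FPKM over the 9 libraries, and not for those below. None of these q-values was under 0.05 in either comparison. The smallest q was 0.415 for sleep against enforced wake and 0.297 for Fxr1 against enforced wake, the latter for Hk1-205 itself.

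**Figure D5:**
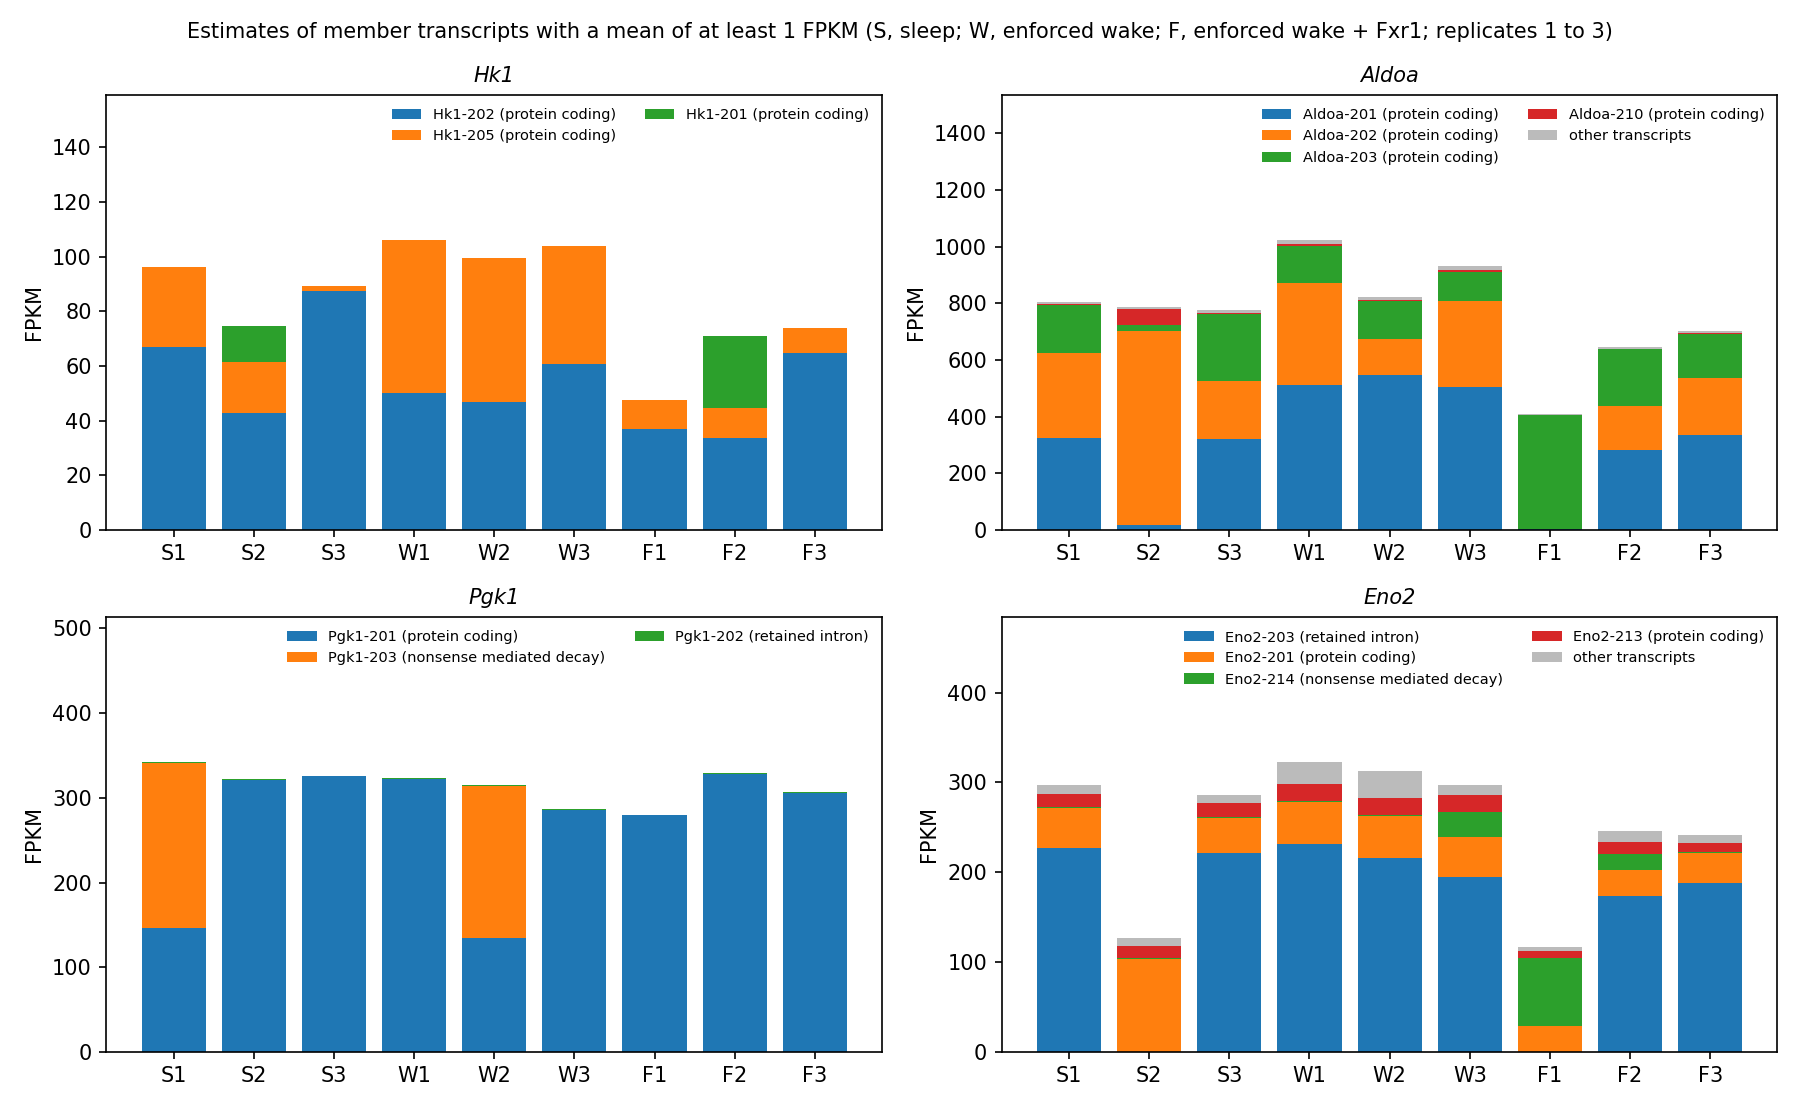
Stacked FPKM (linear axes from 0) of the transcripts with a mean of at least 1 FPKM of Hk1, Aldoa, Pgk1 and Eno2, by library and with the annotated transcript type. Pgk1-203 appears in S1 and W2, and Eno2-203 is absent from S2 and F1.

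Reads of several enzymes can also fall on processed copies of their genes, because 75-base windows of the main transcript occur in other genes of the annotation. The share of such windows was 80.3% for Gapdh, 67.5% for Pgk1, 65.4% for Eno1, 40.6% for Pgam1, 20.4% for Pkm, 9.96% for Gpi1 and 1.53% for Aldoa, and 0% for Hk1, Pfkm and Eno2. The counting of multi-mapped reads was not given in the sources used, so values of the first 4 are uncertain. One window of Gapdh exon sequence, at chr6:125162873-125162947 on the minus strand (GRCm38), is shown because it stands letter for letter in 48 other genes.
Gapdh window: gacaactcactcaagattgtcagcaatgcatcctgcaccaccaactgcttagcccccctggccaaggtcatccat
The tables hold 111 genes that share windows with Gapdh, 101 of them processed pseudogenes. Together they read 1334, 948 and 1204 FPKM in sleep, 1438, 1386 and 1419.7 in enforced wake and 434, 1038 and 1077 with Fxr1, many times the value of Gapdh itself. Of the 48 with a mean of at least 1 FPKM, 44 were lower with Fxr1 than in enforced wake without overlap, against 32.3% of all genes. Copies that can share reads are not separate observations. The copies thus had the same lowest library as Gapdh. Eno1b, a copy of Eno1, rose in enforced wake against sleep from 43.6 ± 7.32 to 57.9 ± 1.38 FPKM (log2 fold change 0.41, adjusted p 0.0439), whereas Eno1 did not pass. Pgk1-rs7, a copy of Pgk1, was at 54.8 ± 0.574 FPKM in sleep, 49.9 ± 3.71 in enforced wake and 53.4 ± 1.62 with Fxr1. Gene sums with the copies added gave Pgk1 424 ± 11.6, 395 ± 25.3 and 393 ± 28.9 FPKM in the 3 groups, where enforced wake lay below sleep without overlap (367 to 415.0 against 415.7 to 437.0). Eno1 with its copies read 272 ± 41.5, 327 ± 9.10 and 196 ± 72.0 FPKM, and enforced wake lay above sleep without overlap (319 to 337 against 229.97 to 313). Both relations differ from those of the gene values alone, which overlapped.

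The promoters were searched for ACGTG, a form of the core letters bound by hypoxia-inducible factors, on both strands in the 250 bases before each start in RefSeq (GRCm38.p6). Other forms of the core were not searched, so an enzyme without ACGTG may hold one of those. All 10 enzymes matched a RefSeq entry by symbol, with 19 starts. The letters occurred before 7 of the 19 starts, and before 16.6% of 32851 starts of all genes. The 7 starts belong to 5 of 10 enzymes (Pfkm, Aldoa, Pgk1, Pgam1 and Pkm). The share of all genes with the letters was not taken, so the count of enzymes has no background. Windows of neighbouring starts overlap, and both Aldoa windows counted hold the same single match, so starts are not separate observations. Windows of Pgk1, Pgam1 and Aldoa are shown, with the letters in capitals, since Pgk1 and Pgam1 had the smallest differences with Fxr1 and Aldoa was the most abundant. They lie at chrX:106186850-106187099 (plus strand), chr19:41911621-41911870 (plus strand) and chr7:126799255-126799504 (minus strand), and hold no annotated exon bases.
Pgk1 upstream: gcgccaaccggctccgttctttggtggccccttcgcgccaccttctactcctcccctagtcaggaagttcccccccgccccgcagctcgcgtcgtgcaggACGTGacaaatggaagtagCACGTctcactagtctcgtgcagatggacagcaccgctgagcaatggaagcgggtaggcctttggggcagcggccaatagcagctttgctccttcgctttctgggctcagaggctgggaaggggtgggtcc
Pgam1 upstream: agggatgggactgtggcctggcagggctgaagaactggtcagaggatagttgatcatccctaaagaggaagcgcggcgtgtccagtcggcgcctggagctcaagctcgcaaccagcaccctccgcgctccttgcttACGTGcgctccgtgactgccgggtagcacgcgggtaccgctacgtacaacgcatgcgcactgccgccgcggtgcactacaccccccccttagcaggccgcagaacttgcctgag
Aldoa upstream: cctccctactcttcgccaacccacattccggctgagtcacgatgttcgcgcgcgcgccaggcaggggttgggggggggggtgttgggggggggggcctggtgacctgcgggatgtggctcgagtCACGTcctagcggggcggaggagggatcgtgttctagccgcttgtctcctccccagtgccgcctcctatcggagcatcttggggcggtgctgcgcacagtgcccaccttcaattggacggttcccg
With Fxr1 against enforced wake, the enzymes with the letters had log2 fold changes of -0.02 (Pgk1), -0.20 (Pgam1), -0.64 (Pfkm), -0.70 (Aldoa) and -0.89 (Pkm). Those without the letters had -0.70 to -0.89. A relation between the letters and the fold changes was not tested. A match describes letters and is not evidence of binding.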

How the data were processed

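Ribosome-associated RNA of mPFC neurons was sequenced in 9 libraries, 3 per group. The authors deposited FPKM per transcript in 2 tables, per the file headers, with their own fold change, p-value and q-value. HISAT2 2.1.0, SAMtools 1.9, StringTie 1.3.4d and GRCm38 are named in the submitters' processing notes. The enforced wake columns are identical in both tables, so the 9 libraries were set side by side. FPKM is relative to each library's total, so a rise of abundant RNA lowers other values.

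Transcript FPKM were summed by gene symbol. log2(FPKM + 1) was tested with limma 3.58.1 (R 4.3.3, trended eBayes, 2-sided) over all genes whose mean reached 0.5 FPKM, with Benjamini-Hochberg adjustment at 0.05. Enforced wake against sleep and Fxr1 against enforced wake used 6 libraries each, and Fxr1 against sleep used all 9. A fold change on this scale understates changes of low genes. The GC and length correction subtracted splines (5 degrees of freedom each), fitted in each library. The fit used protein-coding genes with a mean of at least 1 FPKM, and the longest transcript of each gene. The script was tested on simulated data. Annotation was GENCODE for GRCm38.

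The members, gene lists and tests were chosen with earlier results of these data known. All 10 members are named, with list genes that passed or were most abundant, and transcripts with a mean of at least 1 FPKM. One gene of the lists is not reported here.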

Additional observations from a re-analysis of the deposited data

How the results depend on the processing

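The count of enzymes that passed was 0 in each comparison and stayed 0 under the other pseudocount, both other filters, both scalings, the GC and length correction and the replicate block. In enforced wake against sleep it was 2 with library weights, 1 (Pfkm, -0.20) with the GC and length correction and replicate 2 of sleep left out, and 0 to 3 with 1 library left out. In that corrected fit 1184 of 14661 genes passed as lower. With Fxr1 against enforced wake the count of enzymes was 2 with all 9 libraries in 1 fit (Hk1 and Aldoa), where 2385 of 14617 genes passed as lower. It was 7 with library weights, where 4315 of 14563 genes passed as lower. It was 0 to 7 with 1 library left out, where 7 was without replicate 1 with Fxr1 (2488 of 14554 genes lower). With Fxr1 against sleep it was 3 with library weights, 0 to 0 with 1 library left out, and 4 without both replicate 2 of sleep and replicate 1 with Fxr1. The fits without both libraries, and the corrected fits with either left out, were chosen after seeing the data. With 1 library left out, a group of 2 is assumed to vary like the other groups.

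The numbers of the libraries did not pair them: same-numbered libraries correlated from -0.25 to 0.17 in their deviations, so the replicate block is given here alone. It left 3116, 1 and 372 genes passing in the 3 comparisons, against 4156, 60 and 1138 without it. Genes of the 5 pathway lists passing with the replicate block were 0 with Fxr1 against enforced wake and 0 with Fxr1 against sleep, and with the block and the GC and length correction 7 in enforced wake against sleep, 0 with Fxr1 against enforced wake and 5 with Fxr1 against sleep, against 13, 1 and 2 in the fits reported. All genes passing in the same fit stand in brackets here. In enforced wake against sleep 4 genes of the lists passed with all 9 libraries in 1 fit (1398 of 14617) and 4 with the GC and length correction and replicate 2 of sleep left out (2249 of 14661). With Fxr1 against enforced wake the number was 0 under pseudocount 0.1, under both other filters and under the equal protein-coding sum. It was 15 with all 9 libraries (3366 of 14617), 35 with library weights (6811 of 14563) and 2 with the correction and replicate 1 with Fxr1 left out (232 of 14554). With Fxr1 against sleep it was 1 under pseudocount 0.1, 1 with the filter at 5, 0 with no filter and 0 with the 6 libraries of the pair of groups. It was 6 with the correction (1874 of 14617), 28 with library weights (5032 of 14617) and 12 without both libraries (2057 of 14601). It was 4 or 5 with the correction and replicate 2 of sleep (1092 of 14583) or replicate 1 with Fxr1 (1660 of 14626) left out. With 1 library left out, 6 to 16, 0 to 15 and 0 to 5 genes of the lists passed (1822 to 3631, 2 to 3316 and 248 to 1440). All genes passing ranged from 1398 with all 9 libraries to 5552 with library weights in enforced wake against sleep, from 1 to 6811 with Fxr1 against enforced wake and from 183 with the 6 libraries to 5032 with Fxr1 against sleep. Among transcripts of the enzymes 0 to 2, 1 to 5 and 0 to 0 passed with 1 library left out.

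Signs of values that had not passed changed as follows, as log2 fold changes. In enforced wake against sleep, the GC and length correction, with or without the replicate block, gave Hk1 -0.029, Pfkm -0.15, Pgam1 -0.0057 and Eno1 -0.022. With replicate 2 of sleep also left out it gave Hk1 -0.060, Pfkm -0.20, Gapdh -0.11, Pgam1 -0.020, Eno1 -0.058, Eno2 -0.051 and Pkm -0.016. Library weights gave Pfkm -0.018 and Gapdh -0.0079, and leaving out 1 library gave Pfkm -0.057 to 0.11 and Gapdh -0.024 to 0.45. With Fxr1 against enforced wake, Pgk1 was 0.043 under the equal protein-coding sum, 0.060 under median-ratio scaling, 0.038 under the correction with or without the replicate block, 0.066 with library weights and -0.073 to 0.044 with 1 library left out. Pgam1 was 0.058 under the correction with or without the replicate block. With the correction and replicate 1 with Fxr1 left out, Pgk1 was 0.076, Pgam1 0.075 and Eno1 0.017. With Fxr1 against sleep, the correction with or without the replicate block gave Pgam1 0.052 and Eno2 0.040, with replicate 2 of sleep left out Pgam1 0.038, and with replicate 1 with Fxr1 left out Gapdh 0.073, Pgk1 0.024, Pgam1 0.069 and Eno2 0.23. Leaving out 1 library gave Gapdh -0.95 to 0.015 and Eno2 -0.61 to 0.14. The log2 ratio of Eno2 to Eno1 differed by -0.040 to 0.44, -0.00078 to 0.060 and -0.0074 to 0.47 in the 3 comparisons with 1 library left out, and that of M1 to M2 by -0.15 to 0.24, -0.32 to 0.26 and -0.30 to 0.26. The cause of these changes was not tested. FPKM hold no counts, so no counting interval is given.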
